A study of Rattus norvegicus with 12 samples.

Results

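The genes described here encode neuropeptide precursors, granins, the enzymes that process them, and peptide receptors. The members were chosen by symbol from a list of 44 genes, and 43 of them had a row of that name in the deposited table of 30560 genes. Expression of Vipr1, a receptor gene for vasoactive intestinal peptide, was not analysed here, and the gene enters only the promoter counts at the end. The list held 18 peptide precursors, 6 granins and related secretory proteins, 5 processing genes and 15 receptors. After the filter on low counts 38 of the 43 were tested, among 16260 tested genes in all. Trh, Nmb, Grp, Npy2r and Cckbr were below the filter and are given by their counts.

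Neuropeptides are made as larger precursors that enter dense-core vesicles together with granins, acidic proteins that help these vesicles form and are themselves cut into peptides. Prohormone convertases cut the precursors at pairs of basic residues, carboxypeptidase E trims the ends, and a monooxygenase amidates many of the products. In the retina most peptides are made by sparse types of amacrine cell, the interneurons of the inner retina, and act on G protein-coupled receptors of amacrine, bipolar and ganglion cells and of glia.

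RNA from the retinas of 12 rats was sequenced, 1 library per rat. In 6 rats 2 µL of PBS, the vehicle, was injected into the vitreous (PBS 1 to PBS 6), and in 6 rats 2 µL of 20 mM NMDA (NMDA 1 to NMDA 6). NMDA is a glutamate receptor agonist that injures neurons of the inner retina, and the series is titled as a glaucoma model. The sources used here do not give strain, sex, age or the time between injection and collection, and each library is taken as a separate rat from its label.

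Total counts ran from 16415611 to 34022023 per library. Over the retina as a whole 6167 of 16260 genes changed, 3315 higher and 2852 lower (edgeR quasi-likelihood test, two-sided, Benjamini-Hochberg adjusted p below 0.05), a split of 53.8% higher that was 64.5% with scaling by library size only. Rod markers summed to between 44887 and 48015 CPM (the usual library-size scaling of counts, here with TMM factors) in the PBS libraries, and amacrine markers to between 2150 and 2317 CPM, so that the defining markers of the labelled tissue were present. All 14 measured amacrine markers fell, with a summed level of 1235 to 1733 CPM after NMDA. Of 15 ganglion cell markers 14 fell, from sums of 1052 to 1243 CPM with PBS to 311.2 to 728.5 with NMDA. All 6 rod and all 5 Müller glia markers and 2 of 7 bipolar markers fell, and of 6 microglial markers 5 rose and 1 fell. None of the 6 lens markers passed. Their sums were uneven within each group, 485.5 to 2223 CPM with PBS and 54.5 (NMDA 1) to 2509 CPM (NMDA 5) with NMDA. The part of these cell types in the results below was not tested, and in retina taken whole, fewer cells of a type and less RNA per cell cannot be told apart.

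Most of the tested members were lower after NMDA. Of 38, 22 fell and 3 rose, against 17.5% of all tested genes lower and 20.4% higher (37.9% in either direction; edgeR). Their median log2 fold change was -0.41, beside 0.01 over all tested genes. In 11 members the highest NMDA library was under the lowest PBS library, as in 8.66% of all tested genes, and in 1 member, Pcsk1, the groups were apart in the other direction, as in 9.43% of all tested genes. The members that rose were Calca, Vgf and Pcsk1. These counts cover only members that passed the filter on low counts, which Calca did through its NMDA libraries. By role, 6 of 15 tested precursors fell and 1 rose, 4 of 6 granins fell and 1 rose, 3 of 5 processing genes fell and 1 rose, and 9 of 12 receptors fell and none rose. Median log2 fold changes were -0.29 for precursors, -0.44 for granins, -0.29 for processing genes and -0.76 for receptors. Without NMDA 1 and NMDA 3 together, the libraries at opposite ends of the second principal component, 24 members were lower and 4 higher.

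**Figure D1:**
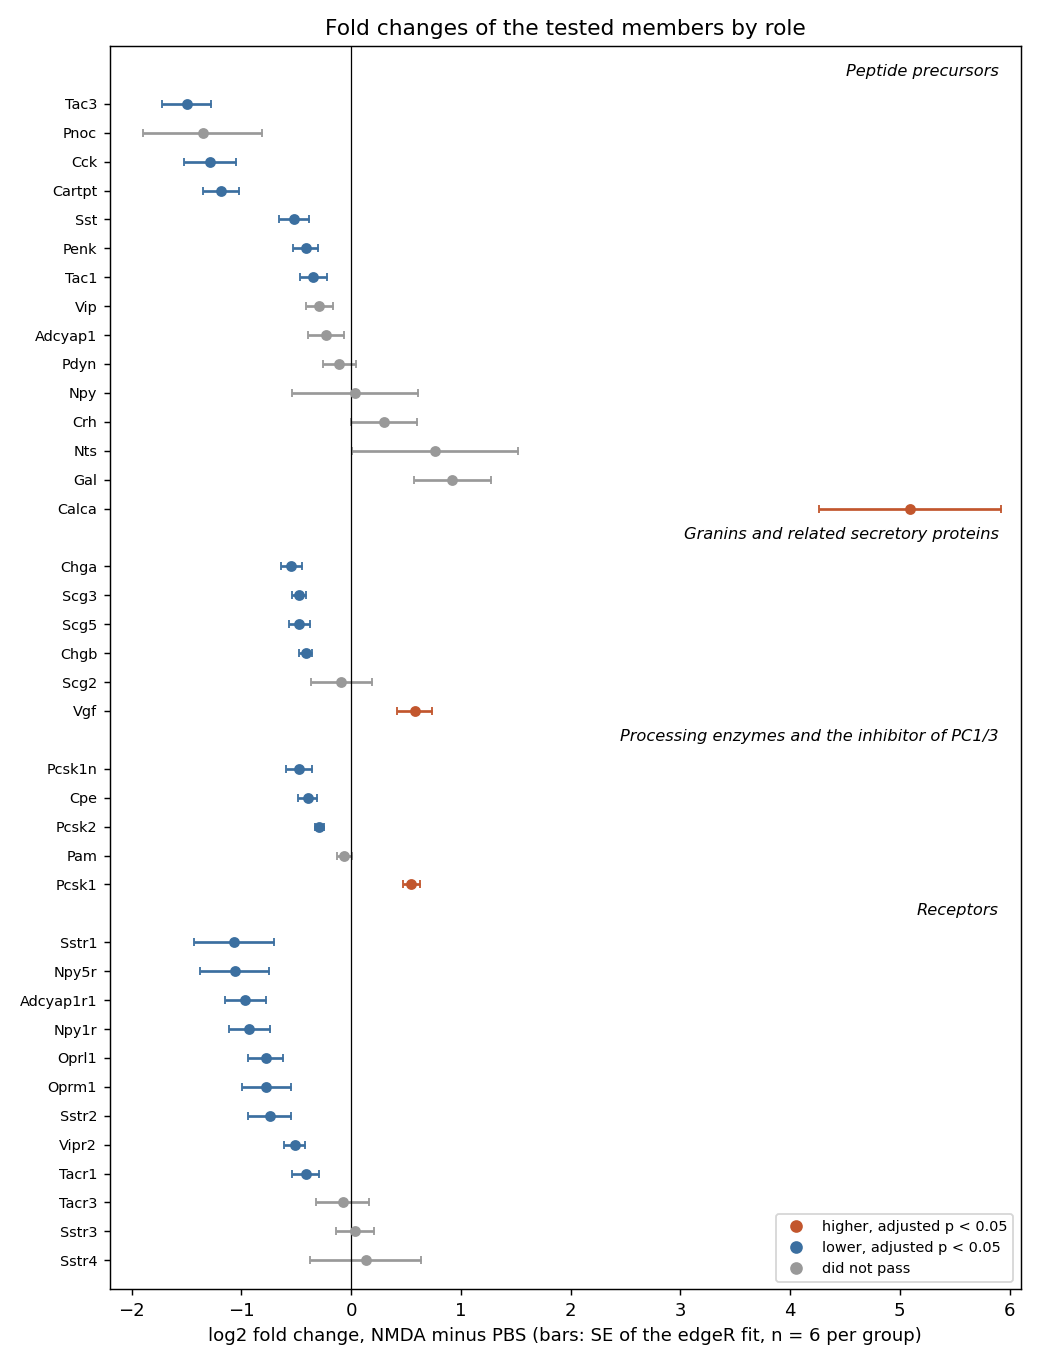
Log2 fold change (NMDA minus PBS) of the 38 tested members on the horizontal axis, grouped by role, with the SE of the edgeR fit as bars. Receptors lie at or left of 0.13, and Calca stands alone at 5.10.

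The members differed widely in level. On the deposited FPKM scale, which divides by gene length and so allows genes to be compared, Cpe was highest with PBS at 442.9 ± 40.2 FPKM (SD, n = 6), followed by Scg5 at 137.9 ± 8.25 and Pcsk1n at 108.3 ± 17.7. The most abundant precursor was Penk at 56.0 ± 7.86 FPKM, next to Cartpt at 48.6 ± 7.74, a difference within their spread. Vipr2 was the most abundant receptor at 24.9 ± 1.91 FPKM. At the low end Npy5r had 0.183 ± 0.0605 and Calca 0.128 ± 0.121 FPKM. After NMDA the order of the first 5 genes was the same, Calca moved from place 43 to place 18, and Tac3 from place 15 to place 20.

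**Figure D2:**
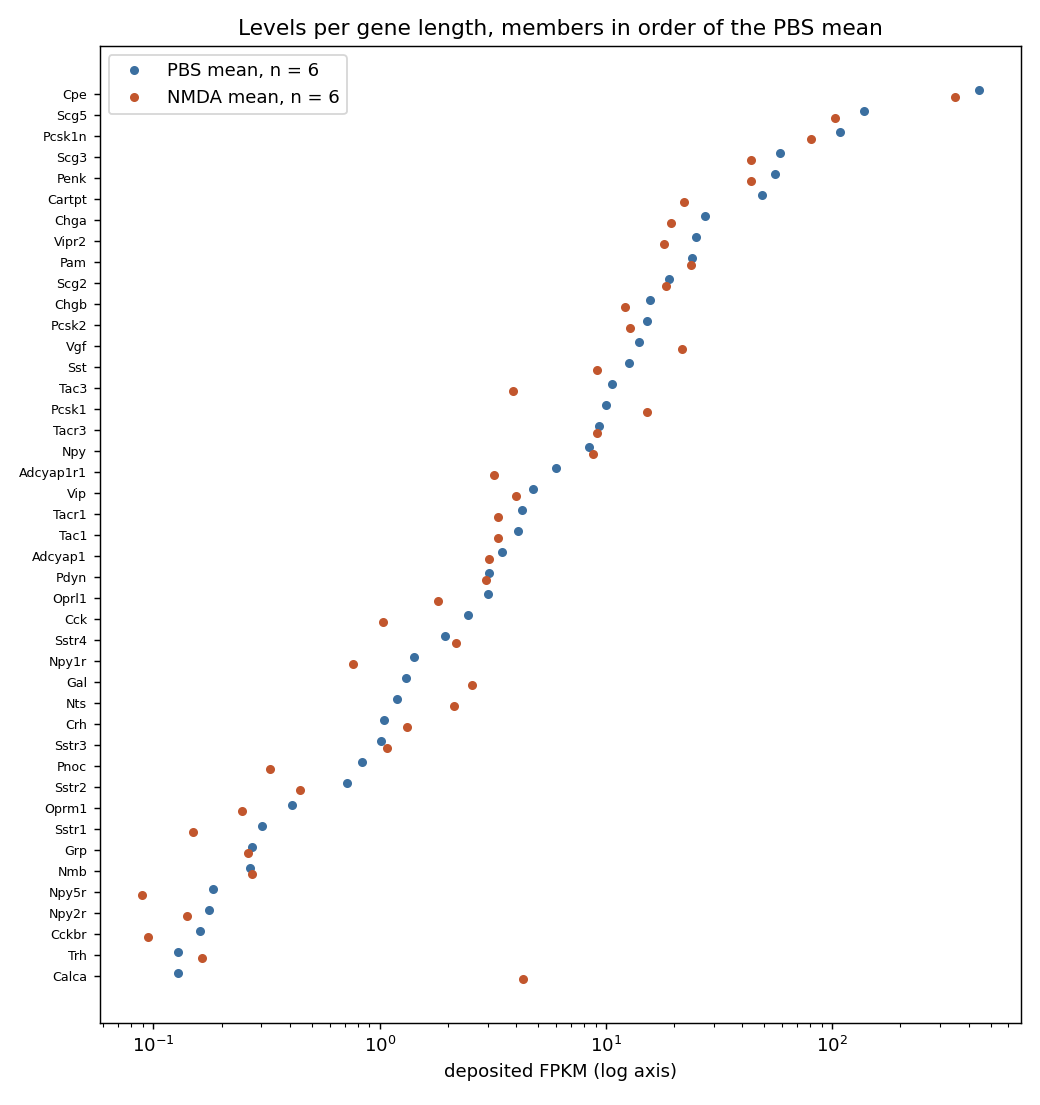
Mean deposited FPKM (log axis) of the 43 members in PBS and NMDA libraries (n = 6 each), in order of the PBS mean. Most NMDA means lie to the left of their PBS means, and Calca moves from the lowest place to 4.30 FPKM.

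Among the precursors, the tachykinin gene Tac3 had the lowest log2 fold change. Tac3 encodes the precursor of neurokinin B (ENSRNOG00000004229, chromosome 7, 63562552 to 63569170; positions are those the authors deposited, without a build named in the sources used here). With PBS its level was lowest at 6.27, in the middle at 8.18 and highest at 9.40 CPM, and with NMDA 1.84, 2.35 and 4.76 CPM. The groups did not overlap, and NMDA 3 and NMDA 1 were the closest to PBS. Tac3 fell by 1.50 (log2; SE 0.22; edgeR adjusted p = 0.000303), from 7.85 ± 1.23 to 2.77 ± 1.12 CPM (SD, n = 6 each).

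Cartpt encodes the precursor of CART peptides (ENSRNOG00000017712, chromosome 2, 31255098 to 31290713). Cartpt ran from 62.9 to 93.5 CPM with PBS (median 76.1) and from 24.8 to 44.8 CPM with NMDA (median 29.1). No NMDA library reached the lowest PBS library, and NMDA 1 and NMDA 3, at 44.6 and 44.8 CPM, stood above the rest of the NMDA group. Cartpt fell by 1.19 (log2; SE 0.16; edgeR adjusted p = 0.000242).

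Cck, the cholecystokinin gene (ENSRNOG00000019321, chromosome 8, 121153500 to 121160084), ran from 2.08 to 4.21 CPM with PBS (median 2.42) and from 0.589 to 1.49 CPM with NMDA (median 1.21). The groups did not overlap, and PBS 3 stood above the other PBS libraries. Cck fell by 1.28 (log2; SE 0.24; edgeR adjusted p = 0.00112). Its total was 394 counts over the PBS libraries and 194 over the NMDA libraries, so counting error weighs more here than in Cartpt, with 11481 and 5899 counts.

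Somatostatin, enkephalin and substance P precursor genes fell less, and their groups overlapped. Sst had 6.83, 7.96 and 10.95 CPM (lowest, median and highest) with PBS and 4.74, 5.88 and 7.08 CPM with NMDA. NMDA 1 and NMDA 3, at 6.93 and 7.08 CPM, lay within the PBS range, and the other NMDA libraries below it. Sst fell by 0.52 (log2; SE 0.14; edgeR adjusted p = 0.0101). Penk, the proenkephalin gene, had 56.3, 74.7 and 85.4 CPM with PBS and 45.1, 54.4 and 64.8 CPM with NMDA. Penk fell by 0.41 (log2; SE 0.11; edgeR adjusted p = 0.0126), and NMDA 1 and NMDA 6 lay within the PBS range. Tac1, which encodes the substance P precursor and carries the type pseudogene in the deposited annotation, went from 3.90 ± 0.261 to 3.06 ± 0.544 CPM and fell by 0.35 (log2; edgeR adjusted p = 0.0422). That call ended without any 1 of PBS 2 to PBS 6, NMDA 2, NMDA 3, NMDA 4 or NMDA 6 (adjusted p from 0.0631 to 0.0873).

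**Figure D3:**
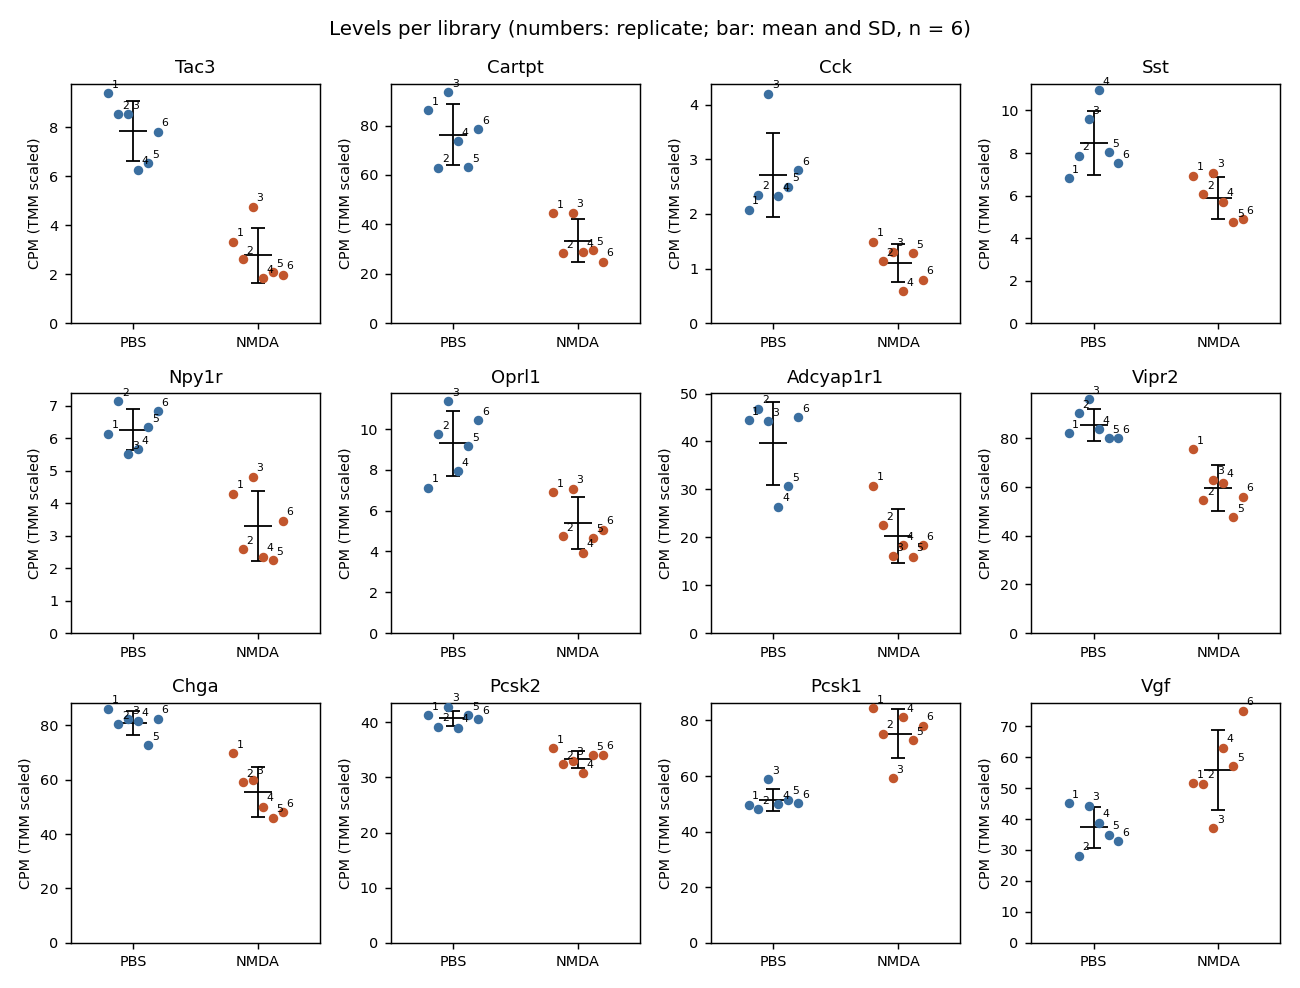
CPM of 12 members in each library, by group, with the replicate number beside each point and the mean and SD (n = 6) as bars. In Tac3, Cartpt, Cck, Npy1r, Oprl1, Vipr2, Chga and Pcsk2 every NMDA library lies below every PBS library, and in Pcsk1 every NMDA library lies above.

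Calca rose the most of all members. The gene encodes calcitonin and the alpha form of calcitonin gene-related peptide by alternative splicing (ENSRNOG00000011130, chromosome 1, 168878214 to 168883105), and a value per gene cannot tell these transcripts apart. PBS libraries had 0 to 8 counts and NMDA libraries 11, 99, 116, 208, 247 and 343 counts, so that the gene passed the filter on low counts through the NMDA group. In CPM the PBS libraries ran from 0 (PBS 6, where 0 counts allow up to 0.111 CPM) to 0.433, and the NMDA libraries from 0.390 (NMDA 2) to 12.6 (NMDA 4). The levels of 5 NMDA libraries were above all PBS libraries, and NMDA 2 was within the PBS range. The fitted rise was 5.10 on the log2 scale with SE 0.83, or 34.2-fold (edgeR adjusted p = 0.000638). It was 4.72 without NMDA 4 and 5.43 without PBS 3. With a pseudocount on the deposited FPKM, which understates changes of low genes, it was 3.93 on log2(FPKM + 0.1) and 1.97 on log2(FPKM + 1) and passed on each (limma). Calcb, the near copy that encodes the beta form, had 14 counts in all over the PBS libraries and 14 over the NMDA libraries and was not tested.

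No call was made for the other 8 tested precursors, and several of them were uneven between libraries of 1 group. Vip, the vasoactive intestinal peptide gene, had 10.2 ± 0.976 CPM with PBS and 8.36 ± 1.48 with NMDA (log2 fold change -0.29; edgeR adjusted p = 0.0722), and passed without NMDA 2 (-0.36, adjusted p = 0.0325). Adcyap1, the gene of the pituitary adenylate cyclase-activating peptide, had 7.45 ± 0.766 and 6.35 ± 1.76 CPM (edgeR adjusted p = 0.311). Pdyn, the prodynorphin gene, had 7.58 ± 1.15 and 7.03 ± 1.61 CPM, and Crh, the corticotropin-releasing hormone gene, 1.27 ± 0.340 and 1.56 ± 0.722 CPM (edgeR adjusted p = 0.625 and 0.471).

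Pnoc, the nociceptin precursor gene, and Gal, the galanin gene, lay near the threshold. Pnoc ran from 0.480 to 1.33 CPM with PBS and from 0 (NMDA 4, where 0 counts allow up to 0.110 CPM) to 0.668 CPM with NMDA (log2 fold change -1.35; edgeR adjusted p = 0.0646). It passed without NMDA 3 (-1.70, adjusted p = 0.0309). Gal ran from 0.332 to 0.956 CPM with PBS, and in NMDA libraries it was at 0.464 in NMDA 3 and between 0.996 and 1.91 in the others, all above the PBS range. Its log2 fold change was 0.92 (edgeR adjusted p = 0.0543), and 1.11 without NMDA 3, where it passed (adjusted p = 0.00826).

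Npy, the neuropeptide Y gene, was set by 1 library in each group. PBS libraries had 3.72 to 4.22 CPM apart from PBS 5 at 11.7, and NMDA libraries had 1.65 to 3.29 CPM apart from NMDA 3 at 18.1. The log2 fold change was 0.03 (edgeR adjusted p = 0.973), -0.91 without NMDA 3 (adjusted p = 0.0463) and -0.51 without PBS 5 and NMDA 3 (adjusted p = 0.0397). Without those libraries each remaining NMDA library lay below each remaining PBS library. Tacr3, the receptor gene for neurokinin B, had the same libraries on top, at 28.7 CPM in PBS 5 (others 17.2 to 20.1) and 37.4 CPM in NMDA 3 (others 12.6 to 18.3). Its log2 fold change was -0.08 (edgeR adjusted p = 0.837) and -0.38 without NMDA 3 (adjusted p = 0.0420). Tacr3 did not pass without any other single library. Markers of the pigment epithelium, ciliary body and iris were also highest in these libraries, with a summed level of 529.5 CPM in PBS 5 (others 140.6 to 209.1) and 727.2 CPM in NMDA 3 (others 36.1 to 110.4). Of these 8 markers 2 fell and none rose, and none was at 0 in any library. Their part in the levels of Npy and Tacr3 was not tested.

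Nts, the neurotensin gene, had the widest relative spread among the PBS libraries, with 4.02, 3.10, 0.990, 0.653, 0.396 and 0.148 CPM in PBS 1 to PBS 6. NMDA 1 and NMDA 2 had 4.94 and 5.38 CPM and the other NMDA libraries 0.638 to 2.81 (log2 fold change 0.76; edgeR adjusted p = 0.466). Other precursors were below the filter. Trh, the thyrotropin-releasing hormone gene, had 27 counts over the PBS libraries and 40 over the NMDA libraries, Nmb, the neuromedin B gene, 28 and 32, and Grp, the gastrin-releasing peptide gene, 50 and 55. These genes were not tested, and no statement on a change is made for them.

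**Figure D4:**
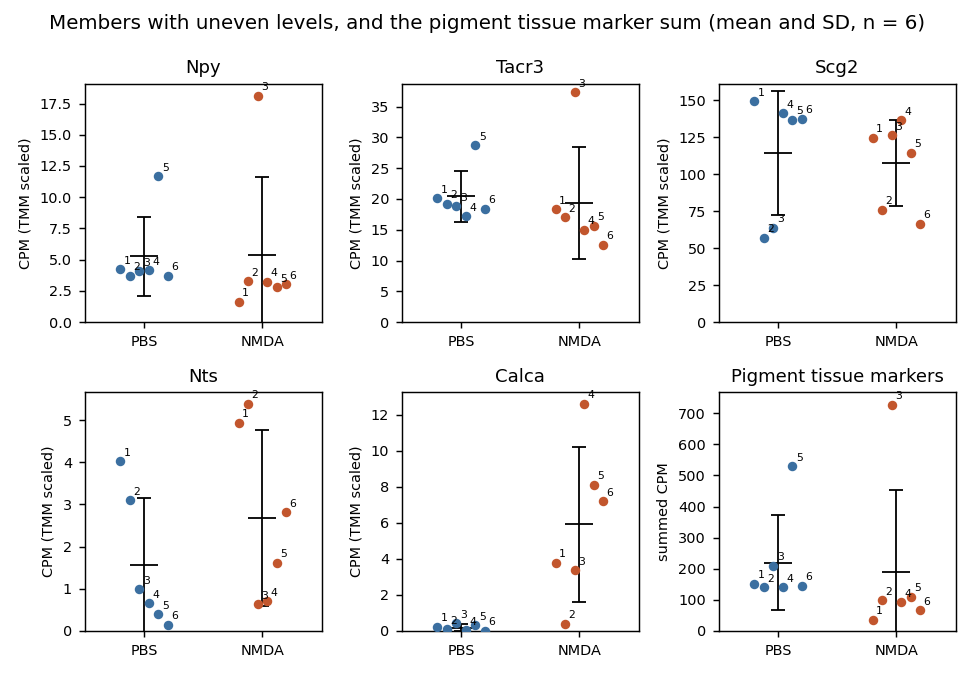
CPM of Npy, Tacr3, Scg2, Nts and Calca and the summed CPM of 8 pigment tissue markers in each library, with the replicate number beside each point and the mean and SD (n = 6) as bars. PBS 5 and NMDA 3 are the highest of their groups in Npy, Tacr3 and the marker sum.

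The granins Chga, Chgb, Scg3 and Scg5 fell together by similar amounts, and Vgf rose. Chga, the chromogranin A gene, had 72.7, 82.0 and 86.1 CPM (lowest, median and highest) with PBS and 46.0, 54.6 and 69.8 CPM with NMDA. Chgb, the chromogranin B gene, had 115.3, 123.0 and 125.1 CPM with PBS and 82.5, 88.3 and 109.9 CPM with NMDA. Scg3, a granin that binds other granins, had 126.4, 135.6 and 145.2 CPM with PBS and 87.7, 94.0 and 116.7 CPM with NMDA. In each of these 3 genes the groups did not overlap, and NMDA 1 was the NMDA library nearest to PBS. Log2 fold changes were -0.54 for Chga, -0.41 for Chgb and -0.48 for Scg3 (SE 0.09, 0.06 and 0.06; edgeR adjusted p = 0.000647, 0.000267 and 0.000189). Scg5 encodes the chaperone of the convertase PC2. It fell by 0.47 (log2; edgeR adjusted p = 0.00178), from 159.8 ± 9.56 to 115.1 ± 20.2 CPM, and NMDA 1, at 154.9 CPM, lay within the PBS range.

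Vgf encodes a granin-like precursor known as a gene induced by nerve growth factor (ENSRNOG00000001416, chromosome 12, 19637320 to 19640341). It had 28.2, 36.9 and 45.1 CPM with PBS and 36.9, 54.3 and 75.0 CPM with NMDA. All NMDA libraries but NMDA 3 lay above all PBS libraries. Vgf rose by 0.58 (log2; SE 0.16; edgeR adjusted p = 0.0126). The deposited positions put Vgf inside the locus of Ap1s1, an adaptor protein gene, over its whole length of 3022 bases. Ap1s1 had 10656 counts against 15325 for Vgf and a log2 fold change of 0.27 (edgeR adjusted p = 0.00632), and the sources used here do not say how reads in the overlap were assigned. Within a library, a measure that scaling does not touch, there were 0.308 ± 0.0573 Vgf counts per Chgb count with PBS and 0.623 ± 0.181 with NMDA (SD, n = 6). Since Chgb fell and Vgf rose in these same values, the ratio restates both calls and adds no support to either.

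Scg2, the secretogranin II gene, had no call (log2 fold change -0.09; edgeR adjusted p = 0.834) and a large spread within each group. PBS 2 and PBS 3 had 57.1 and 63.9 CPM, and the other PBS libraries 136.9 to 149.3. NMDA 2 and NMDA 6 had 76.2 and 66.5 CPM, and the other NMDA libraries 114.6 to 136.6. Thus 4 of the 12 libraries, from both groups, lay between 57.1 and 76.2 CPM and none lay between 76.2 and 114.6.

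The processing genes held the member with the clearest separation upwards. Pcsk1 encodes the prohormone convertase PC1/3 (ENSRNOG00000011107, chromosome 2, 4395543 to 4442434). It had 48.1, 49.998 and 58.9 CPM with PBS and 59.2, 76.6 and 84.3 CPM with NMDA. All NMDA libraries were above all PBS libraries, although NMDA 3, at 59.2 CPM, was close to PBS 3, at 58.9. Pcsk1 rose by 0.55 (log2; SE 0.08; edgeR adjusted p = 0.000233). Pcsk2, which encodes the related convertase PC2, had 39.1, 40.9 and 42.9 CPM with PBS and 30.8, 33.5 and 35.4 CPM with NMDA and fell by 0.29 (log2; SE 0.04; edgeR adjusted p = 0.000268). The convertase genes thus had opposite signs. Counts of Pcsk1 per count of Pcsk2 went from 1.26 ± 0.0606 with PBS to 2.26 ± 0.280 with NMDA (SD, n = 6), between 1.20 and 1.37 in PBS libraries and between 1.79 and 2.63 in NMDA libraries. This ratio too restates the calls of both genes.

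Pcsk1n, which encodes proSAAS, an inhibitor of PC1/3, fell by 0.47 (log2; SE 0.12; edgeR adjusted p = 0.00640). Its levels were 95.8, 106.7 and 142.4 CPM with PBS and 65.8, 83.5 and 92.8 CPM with NMDA, without overlap. Cpe, the carboxypeptidase E gene and the most abundant member, fell by 0.39 (log2; SE 0.09; edgeR adjusted p = 0.00329), from 942.3 ± 86.5 to 716.9 ± 93.3 CPM. NMDA 4, at 831.6 CPM, lay above PBS 6, at 825.9. Pam, the amidating enzyme gene, had 161.0 ± 9.03 and 154.2 ± 18.1 CPM (log2 fold change -0.06, SE 0.07; edgeR adjusted p = 0.529).

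Receptor genes had the lowest median of the roles, and 9 of the 12 tested fell. The neuropeptide Y receptor gene Npy1r (ENSRNOG00000014149, chromosome 16, 23037789 to 23046759) had 5.50, 6.24 and 7.13 CPM (lowest, median and highest) with PBS and 2.24, 3.03 and 4.82 CPM with NMDA, without overlap. Npy1r fell by 0.93 (log2; SE 0.19; edgeR adjusted p = 0.00201). Its neighbour on the chromosome, Npy5r, had 0.911 ± 0.300 and 0.427 ± 0.195 CPM and fell by 1.06 (log2; edgeR adjusted p = 0.0162), on totals of 137 and 77 counts. Npy2r, typed as a pseudogene in the deposited annotation, had 22 counts over the PBS libraries and 20 over the NMDA libraries and was not tested.

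Receptors of the VIP and PACAP family were the most abundant ones that fell. Adcyap1r1, which encodes the PACAP receptor PAC1 (ENSRNOG00000012098, chromosome 4, 84593892 to 84642700), had 26.4, 44.3 and 46.9 CPM with PBS and 15.9, 18.3 and 30.7 CPM with NMDA. NMDA 1, at 30.7 CPM, lay above PBS 4 and PBS 5, at 26.4 and 30.6, and the other NMDA libraries lay below all PBS libraries. Adcyap1r1 fell by 0.96 (log2; SE 0.19; edgeR adjusted p = 0.00187). Vipr2, a receptor gene for VIP and PACAP, had 79.9, 82.7 and 95.9 CPM with PBS and 47.6, 58.7 and 75.5 CPM with NMDA. The groups did not overlap, and Vipr2 fell by 0.52 (log2; SE 0.09; edgeR adjusted p = 0.000992). The genes of their ligands, Vip and Adcyap1, did not pass.

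Both listed receptor genes of the opioid family, Oprl1 and Oprm1, fell, and Oprk1, the kappa opioid receptor gene outside the members, had no call (log2 fold change -0.64; edgeR adjusted p = 0.194). Oprl1, the nociceptin receptor gene (ENSRNOG00000016768, chromosome 3, 168834003 to 168839920), had 7.12, 9.46 and 11.4 CPM with PBS and 3.94, 4.90 and 7.08 CPM with NMDA. The lowest PBS library and the highest NMDA library nearly met, and Oprl1 fell by 0.78 (log2; SE 0.16; edgeR adjusted p = 0.00225). Oprm1, the mu opioid receptor gene, went from 2.43 ± 0.448 to 1.41 ± 0.506 CPM and fell by 0.77 (log2; edgeR adjusted p = 0.0163). NMDA 3, at 2.29 CPM, was the 1 NMDA library within the PBS range. Over 144208 bases Oprm1 overlaps Ipcef1, whose log2 fold change was -0.47 (edgeR adjusted p = 0.0142).

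The somatostatin receptor genes differed from each other. Sstr2 went from 4.70 ± 0.857 to 2.80 ± 0.809 CPM and fell by 0.74 (log2; SE 0.20; edgeR adjusted p = 0.00924), with NMDA 6 alone within the PBS range. Sstr1 went from 1.20 ± 0.627 to 0.575 ± 0.239 CPM and fell by 1.07 (log2; SE 0.37; edgeR adjusted p = 0.0345), a call that ended without any 1 of PBS 1, PBS 5, NMDA 2, NMDA 4, NMDA 5 or NMDA 6 (adjusted p from 0.0614 to 0.0889). Sstr3 had 3.99 ± 0.898 and 4.09 ± 0.863 CPM (log2 fold change 0.03, SE 0.17; edgeR adjusted p = 0.911). Sstr4 had 1.71 to 5.07 CPM with PBS and 3.58 to 7.14 CPM in 5 NMDA libraries, and 0.192 CPM, or 5 counts, in NMDA 1 (edgeR adjusted p = 0.870).

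Tacr1, the substance P receptor gene, had 12.6, 14.9 and 16.6 CPM with PBS and 7.83, 11.3 and 13.3 CPM with NMDA. NMDA 1 and NMDA 3 lay within the PBS range, and Tacr1 fell by 0.41 (log2; SE 0.12; edgeR adjusted p = 0.0156). Cckbr, a cholecystokinin receptor gene, had 71 counts over the PBS libraries and 47 over the NMDA libraries and was not tested.

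The NMDA libraries were not equally far from PBS. Over the 22 members that fell, the median log2 ratio to the PBS mean was -0.29 in NMDA 1, -0.42 in NMDA 3, -0.57 in NMDA 2, -0.70 in NMDA 4, -0.77 in NMDA 6 and -0.88 in NMDA 5. NMDA 1 was within or above the PBS range in 7 of these 22 members and NMDA 3 in 5, against 0 to 2 in the others. The same libraries had the highest sums of ganglion cell markers among the NMDA libraries, 685.4 CPM in NMDA 1 and 728.5 in NMDA 3 (others 311.2 to 428.5), and of amacrine markers, 1733 and 1729 CPM (others 1235 to 1444). The members were chosen with results known, so that this is a description of these libraries.

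**Figure D5:**
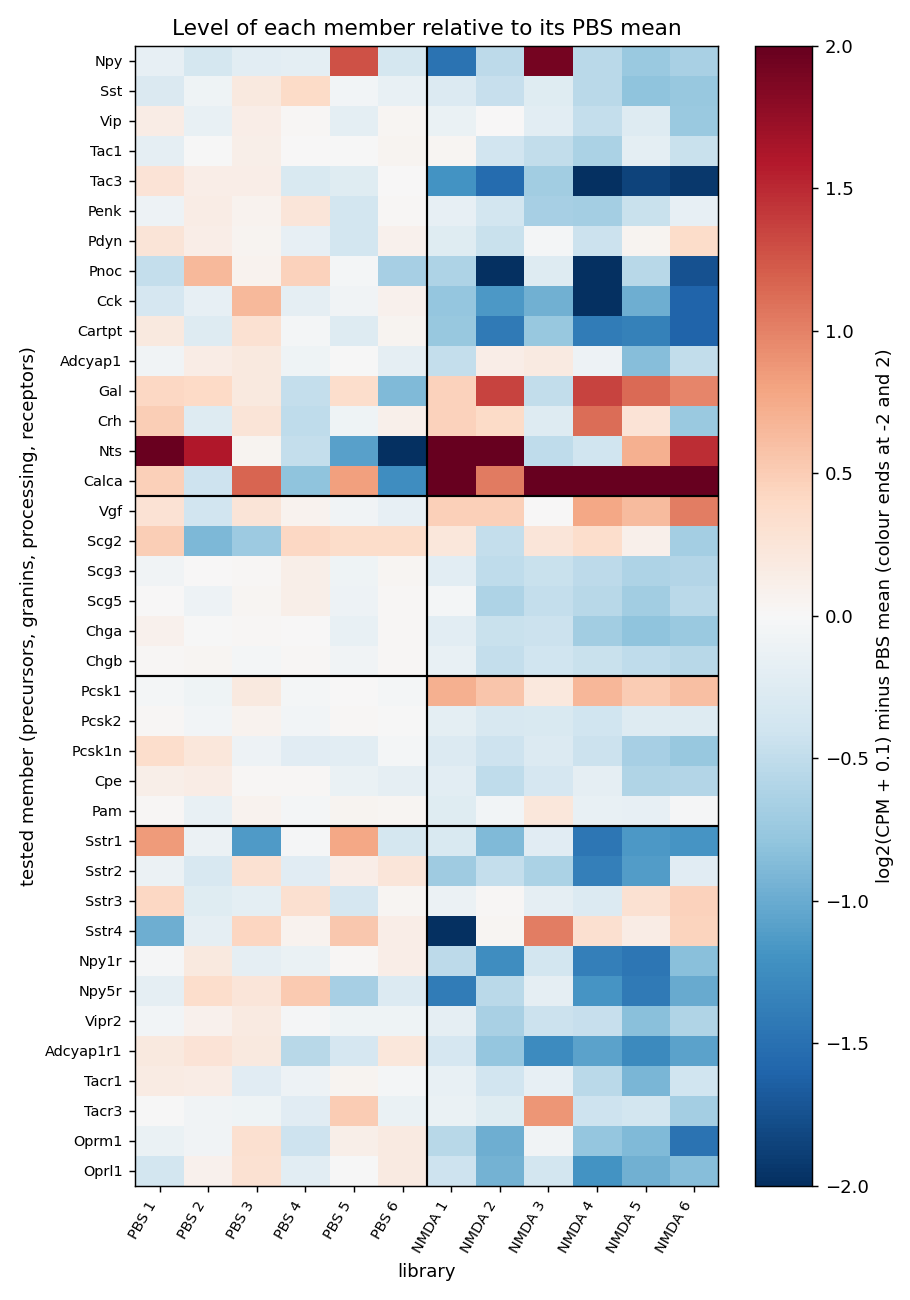
Colour gives log2(CPM + 0.1) minus the PBS mean for the 38 tested members (rows, in the order precursors, granins, processing genes, receptors) in the 12 libraries (columns). Red is above and blue below the PBS mean, with the colour scale ending at -2 and 2. The NMDA columns are mostly blue, and Calca, Vgf and Pcsk1 are the called members in red.

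Cyclic AMP response elements are binding sites of CREB family factors and are known from the promoters of several peptide genes. RefSeq promoter windows (GRCr8, 250 bases before to 50 after the gene's start) matched 36 of the 44 members by symbol, Vipr1 included. These members had 37 windows in all. The full element TGACGTCA was searched on both strands (it reads the same on each). It was in a window of 5 of these 36 members and in 1.83% of all 33469 windows. Tac3, Penk, Pnoc, Cck, Crh, Chga, Pcsk1 and Oprl1 had no window and were not searched, so other holders may be missing. All holders found are shown: Cartpt, Sst and Sstr2 fell, Vgf rose and Scg2 had no call. The part of the element in these levels was not tested. Each stretch is written 5′ to 3′ on the gene's strand with the element in capitals.
Cartpt, chr2:32991320-32991427, minus strand: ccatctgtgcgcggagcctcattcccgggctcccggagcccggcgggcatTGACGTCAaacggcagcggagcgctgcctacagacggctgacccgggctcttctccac
Sst, chr11:90461498-90461595, plus strand: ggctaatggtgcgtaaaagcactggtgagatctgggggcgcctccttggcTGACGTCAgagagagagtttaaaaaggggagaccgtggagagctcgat
Sstr2, chr10:99163230-99163337, plus strand: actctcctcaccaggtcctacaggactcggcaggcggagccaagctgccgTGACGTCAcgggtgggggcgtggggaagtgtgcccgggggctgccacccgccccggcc
Vgf, chr12:25277053-25277160, minus strand: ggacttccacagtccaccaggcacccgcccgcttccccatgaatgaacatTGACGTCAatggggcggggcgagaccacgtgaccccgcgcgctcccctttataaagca
Scg2, chr9:88256932-88257039, minus strand: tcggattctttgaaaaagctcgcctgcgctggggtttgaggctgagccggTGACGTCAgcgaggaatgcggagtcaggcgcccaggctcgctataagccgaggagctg
The first base of the element stands at -142 in Cartpt, -123 in Scg2, -90 in Vgf and -73 in Sstr2 from the annotated start. In Sst it stands at 3, counting the base of the annotated start as 1. Whether transcription begins at the annotated starts was not tested, so these positions do not place an element inside or outside a transcript.

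The shorter core TGACG, which the full element contains, was found on either strand in a window of 22 of the 36 members. It was in 21.2% of all windows. Calca, the member with the largest rise, held the core once and not the full element. Its stretch is shown for comparison, with the core in capitals.
Calca, chr1:178317587-178317691, minus strand: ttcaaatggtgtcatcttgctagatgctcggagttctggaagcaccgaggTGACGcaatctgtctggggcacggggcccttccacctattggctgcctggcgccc
The AP-1 motif TGANTCA was in the windows of Npy2r and Nts and in 7.33% of all windows. A match is a description of the letters in this window and not a measured binding site.

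Other genes of peptide signalling were taken from lists drawn up by function. There were 38 other peptide precursor genes in the deposited data, of which 11 could be tested, and 3 rose and 3 fell. That is 27.3% in each direction, beside 20.4% of all tested genes higher and 17.5% lower, which for so few genes is near the background. Pomc, the precursor gene of melanocortins and beta-endorphin, rose by 0.85, Nucb2, the nesfatin precursor gene, by 0.19 and Npb, the neuropeptide B gene, by 0.17. Avp, the vasopressin gene, fell by 1.03 (log2; edgeR adjusted p = 0.000325), from 1.72 ± 0.209 to 0.842 ± 0.154 CPM, without overlap.

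Of 27 other tested receptor genes 11 fell (40.7%, beside 17.5% of all tested genes) and 2 rose (7.41%, beside 20.4%). Their median log2 fold change was -0.31, beside 0.01 over all tested genes. Mchr1, a receptor gene for melanin-concentrating hormone, rose the most of all listed pathway genes outside the members. It went from 5.54 ± 1.58 to 39.2 ± 9.93 CPM, a log2 difference of 2.82 with SE 0.23 (edgeR adjusted p = 1.56e-05), without overlap. Npr1, a natriuretic peptide receptor gene, rose by 0.51. The corticotropin-releasing hormone receptor genes Crhr2 and Crhr1 fell by 1.38 and 1.10 and the neurotensin receptor gene Ntsr1 by 0.98 (log2; edgeR adjusted p = 0.000527, 0.00168 and 0.0234).

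Of 17 genes of dense-core vesicles and of other processing enzymes 8 fell (47.1%, beside 17.5% of all tested genes) and 3 rose (17.6%, beside 20.4%). Ptprn, which encodes a transmembrane protein of dense-core vesicles, rose by 0.58 (log2; SE 0.09; edgeR adjusted p = 0.000328), from 230.5 ± 20.2 to 343.3 ± 44.8 CPM, while its relative Ptprn2 had 104.7 and 106.1 CPM and did not pass. Cpm, a carboxypeptidase gene, rose by 1.58 (log2; SE 0.54; edgeR adjusted p = 0.0373). Its groups overlapped, with 6.23 to 17.7 CPM with PBS and 3.10 to 60.02 CPM with NMDA, so that the lowest library of all was an NMDA library. Furin, a convertase gene of the secretory pathway, rose by 0.18. Cadps, which encodes a priming factor for dense-core vesicle release, fell by 0.44, Baiap3 by 0.66 and Pcsk4 by 0.41.

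Of 14 genes of peptide-degrading enzymes and binding proteins 7 rose (50.0%, beside 20.4% of all tested genes) and 2 fell (14.3%, beside 17.5%). Anpep, the aminopeptidase N gene, rose by 2.45 (log2; SE 0.25; edgeR adjusted p = 3.89e-05), from 2.25 ± 0.823 to 12.3 ± 3.86 CPM, Enpep, the aminopeptidase A gene, by 1.33 and Ide, the insulin-degrading enzyme gene, by 0.57. Ece2, an endothelin-converting enzyme gene, and Trhde, the gene of the enzyme that degrades thyrotropin-releasing hormone, fell by 0.67 and 0.59.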

How the data were processed

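Whole-number counts per gene were deposited by the authors with no scaling, and the authors deposited FPKM values beside them, per the file headers. Bowtie2, RSEM 1.3.1 and DESeq2 1.4.5 are named in the submitters' processing notes, without roles. The sources used here do not give the genome build or how strand, overlapping genes and reads with several matches were handled. Positions are those in the deposited table, and promoter sequences come from RefSeq (GRCr8).

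Genes were filtered with filterByExpr (minimum count 10, total 15), scaled by TMM (factors 0.976 to 1.03) and compared by the robust quasi-likelihood test of edgeR 4.0.16 (two-sided, group as the only term, all 12 libraries) in R 4.3.3. Benjamini-Hochberg adjustment ran over 16260 genes with a threshold of 0.05. SE is the log2 fold change divided by the root of F. All members were to be named, and of each other pathway list the 3 largest rises and falls among called genes whose average log2 CPM was 0 or more. The members and lists were chosen with earlier results of these data known. On simulated counts for NMDA against PBS (16118 genes tested), some genes were given log2 changes of 0.5, 1 or 2. Of these, 67, 66 and 63 passed the filter on low counts, and the test recovered 58.2%, 83.3% and 92.1% of those. Changed genes below the filter are not in these shares. No other tested gene was changed and no library was made to deviate. In the real data 37.9% of tested genes were called, so these rates need not hold here. Alternatives used DESeq2 1.42.0 and limma 3.58.1 (voom with quality weights, and trend on log2(FPKM + 1) and log2(FPKM + 0.1)). Others used other scalings and filters (none, or 10 CPM in 6 libraries), a replicate block, and fits without libraries. No libraries had identical counts. Intervals from 0 counts (3 counts as the limit) cover counting error only.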

Additional observations from a re-analysis of the deposited data

Results flagged for a closer look

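In 8 of 76 groups of 6 libraries (38 tested members in both groups) the highest library stood apart from the other five, with a gap to the nearest library that took more than 0.625 of the group's range. The lowest library was examined in the same way, and none was flagged. For normally distributed values chance flags 1 end or the other in about 1 of 20 groups. Members share the same libraries, so the groups are not independent and that rate is only a rough guide. Npy was highest in PBS 5 (0.938 of the range) and NMDA 3 (0.900), and Tacr3 in the same libraries (0.748 and 0.767), where the pigment tissue marker sum was also highest. Cck and Pcsk1 were highest in PBS 3 (0.659 and 0.683 of the range), at 4.21 and 58.9 CPM. Scg5 and Chgb were highest in NMDA 1 (0.715 and 0.654), at 154.9 and 109.9 CPM, the NMDA library nearest to PBS over the members that fell.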

How the results depend on the processing

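Under 23 alternatives the count of members lower ran from 12 to 24 and that of members higher from 2 to 4. The 12 lower came with the strict filter of 10 CPM in 6 libraries, which tested fewer members. Leaving out 1 library gave 20 to 24 lower and 3 to 4 higher, and 2415 to 3232 lower and 2832 to 3397 higher over all genes. Of 25 called members, 23 kept direction and call under every alternative in which they were tested, and Tac1 and Sstr1 did not. Neither Tac1 nor Sstr1 passed with the replicate block (adjusted p = 0.0948 and 0.0667), which gave 20 members lower and 3 higher. Labels do not say what equal numbers mean. Correlations of deviations between libraries of equal number ran from -0.17 to 0.19. Among the PBS libraries only PBS 1 correlated best with the NMDA library of its own number. Low correlations cannot exclude that libraries of equal number were handled together, so no conclusion on pairing is drawn. Tac1 also did not pass without a filter or with library size scaling, nor Sstr1 on log2(FPKM + 1) or log2(FPKM + 0.1).

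The sign turned only in members without a call. Npy was at -0.38 with the block, -0.35 with voom with quality weights, -0.23 on log2(FPKM + 1) and -0.29 on log2(FPKM + 0.1). It was at -0.78 without NMDA 1 and NMDA 3, -0.51 without PBS 5 and NMDA 3, and -0.91 to 0.44 without 1 library. Scg2 was at 0.0095 on log2(FPKM + 1), 0.013 on log2(FPKM + 0.1) and up to 0.016 without 1 library. Sstr4 was at -0.12 with the block, -0.18 on log2(FPKM + 0.1) and from -0.12 to 0.37 without 1 library. Without 1 library Sstr3 ran from -0.064 to 0.13 and Tacr3 from -0.38 to 0.044. The cause was not tested. Vip, Pnoc and Gal passed in 3, 7 and 8 alternatives. Depth limits what can be said of members under about 1 CPM.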
